A study of Homo sapiens with 12 samples.

Results

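The genes described here make, sense or remove prostaglandin E2: PTGS1, PTGS2, PTGES, PTGES2, PTGES3, HPGD and PTGER4, which are 7 of the 33514 gene symbols in the count tables. They were taken by name, and the group was chosen by the measured change of PTGES under cetuximab, which went in opposite directions in SCC1 and SCC6. The levels and changes of PTGES are therefore a description with no test. All 7 genes passed the filter on low counts and entered the fit of 17897 genes.

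The measurement was droplet-based single-cell RNA sequencing with 10x Genomics 3′ chemistry in SCC1, SCC6 and SCC25, established lines of head and neck squamous cell carcinoma (HNSCC) grown in the same medium. Cetuximab, an antibody against the epidermal growth factor receptor (EGFR), was given daily at 100 nM for 5 days, and PBS was given to the untreated controls over the same 5 days. Each of the 6 groups had 2 replicates, so that SCC1, SCC6 and SCC25 each had 2 PBS and 2 cetuximab samples, 12 in all. The methods speak only of duplicate sequencing, and neither they nor the labels say whether replicates came from separate cultures, so p-values cover only the spread between these samples, which may be technical. Cells of 1 sample are not replicates, and UMIs (unique molecular identifiers, 1 per captured transcript) were summed per sample before any test.

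The samples held 961 to 2854 cells and 57057402 to 112170073 UMIs each, with a median of 24078.5 to 54864 UMIs per cell. SCC6 cetuximab replicate 1 was the shallowest of the 12 per cell. Any 2 samples shared 1 to 13 cell barcodes. Levels of samples are given in CPM, which are UMIs per 1000000 UMIs of the sample after its total was adjusted by the TMM scaling factor of edgeR. The lines are labelled as squamous carcinoma. In SCC1 and SCC25 8 squamous markers summed to 2678.58 to 9497.3 CPM, but in SCC6 to 452.2 to 756.2 CPM. In SCC6 the basal keratins KRT5 and KRT14 stayed at or below 4.47 and 2.52 CPM and the desmoglein DSG3 at or below 0.274 CPM, whereas EGFR, EPCAM and SFN were present. Genes that these cells should lack, PTPRC, CD3E, ALB and HBB, were detected in no more than 0.345% of cells per sample, and in no more than 0.183% once each cell was thinned at random to 15000 UMIs. They come from a list of 6 blood and liver markers that also holds LYZ and CD68. This list had 1 gene of at least 1 CPM in every sample. It summed to 119.6 to 205.1 CPM in SCC25, 6.97 to 17.0 CPM in SCC1 and 3.34 to 30.5 CPM in SCC6.

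Prostaglandins are lipid mediators made from arachidonic acid, which phospholipases cut from membranes. The cyclooxygenases PTGS1 (COX-1, usually constitutive) and PTGS2 (COX-2, induced by growth factors and inflammatory signals) turn arachidonic acid into prostaglandin H2. The prostaglandin E synthases convert it to prostaglandin E2, with PTGES as the inducible microsomal enzyme, PTGES2 as a second membrane-associated one and PTGES3 as the cytosolic one, also known as the HSP90 co-chaperone p23. HPGD oxidises prostaglandin E2 and ends its action, and PTGER4 is its EP4 receptor. In squamous carcinoma this pathway is known for COX-2 and for its ties to EGFR signalling.

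PTGES and PTGS2 encode the inducible enzymes of the pathway, and the 250 bases upstream of their RefSeq start sites are shown because the values of these genes carry the results. Both lie on the minus strand of GRCh38.p14, at chr9:129753043-129753292 and chr1:186680424-186680673, and the letters and coordinates are RefSeq's. Capitals mark the 4 motifs that were searched on both strands. The letters GCGTGGGCG are a site of the factor EGR1. The GC box was searched as GGGCGG, and the TATA box of many inducible genes as TATAAA. The short form of the cAMP response element was searched as TGACG and is present here on the opposite strand.

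PTGES: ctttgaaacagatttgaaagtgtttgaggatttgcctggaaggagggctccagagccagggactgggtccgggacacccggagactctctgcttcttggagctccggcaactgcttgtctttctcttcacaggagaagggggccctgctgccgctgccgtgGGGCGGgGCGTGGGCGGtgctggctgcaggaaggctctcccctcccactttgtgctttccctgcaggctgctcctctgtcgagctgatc

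PTGS2: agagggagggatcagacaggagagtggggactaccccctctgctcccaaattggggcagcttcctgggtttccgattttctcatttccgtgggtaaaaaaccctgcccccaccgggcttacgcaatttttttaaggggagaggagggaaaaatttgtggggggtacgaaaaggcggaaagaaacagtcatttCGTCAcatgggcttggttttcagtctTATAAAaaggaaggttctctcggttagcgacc

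The genes lie on GRCh38.p14 as follows. PTGES spans 129738349 to 129753042, PTGES2 128120693 to 128128440 and PTGS1 122370533 to 122395703 of chromosome 9. PTGES3 spans 56663349 to 56688284 of chromosome 12, PTGS2 186671791 to 186680423 of chromosome 1, HPGD 174490175 to 174522893 of chromosome 4 and PTGER4 40679915 to 40746800 of chromosome 5.

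The PTGES window held 1 EGR1 site and 2 GC boxes, 1 of which overlaps the EGR1 site, between bases -89 and -73 before the start, and neither a TATA box nor a short cAMP element. The PTGS2 window held a TATA box from -32 to -27 and a short cAMP element from -58 to -54, and neither a GC box nor an EGR1 site. Of 35116 promoter windows of this length, 0.72% held the EGR1 letters, 42.6% the GC box, 10.7% the TATA box and 21.2% the short cAMP element. A match of letters is a description and was not read as a bound site.

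PTGS1, the constitutive cyclooxygenase, differed most between the lines. In untreated SCC25 it stood at 138.6 and 239.4 CPM, in SCC1 at 2.84 and 4.64 CPM and in SCC6 at 0.394 and 0.392 CPM, which is 33 and 36 UMIs per sample. The lines did not overlap, in the order SCC25, SCC1, SCC6. The log2 fold change was 5.66 ± 0.56 (SE) for SCC25 against SCC1 (FDR 4.2e-05), -3.25 ± 0.54 for SCC6 against SCC1 (FDR 0.000927) and -8.91 ± 0.66 for SCC6 against SCC25 (FDR 6.96e-06, edgeR quasi-likelihood test with Benjamini-Hochberg adjustment, n = 2 per line). Differences between untreated lines were common, with 40.2%, 40.8% and 40.9% of all tested genes called for SCC6 against SCC1, SCC25 against SCC1 and SCC6 against SCC25.

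With cetuximab, PTGS1 fell in SCC6 from 33 and 36 UMIs to 0 and 7 UMIs per sample, or from 0.394 and 0.392 to 0 and 0.0774 CPM. The log2 fold change was -3.21 ± 0.77 (FDR 0.0487), in a comparison that called 3.81% of all genes in either direction and 1.3% as lower. All 4 values are below those of the other lines, and 1.14% and 1.33% of untreated SCC6 cells held a PTGS1 UMI. Leaving out a single sample moved the FDR to between 0.0389 and 0.238, and the call was lost in 9 of 12 such fits, among them those without SCC6 PBS replicate 1 (FDR 0.224) and without SCC6 cetuximab replicate 1 (log2 fold change -2.32, FDR 0.238), and also in SCC6 fitted alone (FDR 0.137). Without SCC6 cetuximab replicate 2 the remaining treated sample had 0 UMIs, and the fitted value of -8.08 then depended on the prior count. In SCC1 the gene read 2.84 and 4.64 CPM in PBS and 1.46 and 2.61 CPM in cetuximab, so that each cetuximab sample was under both PBS samples, as for 20.4% of all genes, with a log2 fold change of -0.87 ± 0.48 (FDR 0.689). In SCC25 it read 167.7 and 235.3 CPM with cetuximab, within the range of the PBS samples. The interaction of line and treatment for PTGS1 had an FDR of 0.526 (0.0694 with the replicate number as a block, 0.0127 in DESeq2 and 0.0284 without the low-count filter), so that whether the lines differed in response depended on the test.

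The cells of SCC25 carried PTGS1 broadly. A sum over cells cannot tell fewer positive cells from less RNA per cell, so the share of positive cells was read as well. At few UMIs per cell this share also follows the RNA per cell. Shares and UMIs per positive cell are therefore descriptions that cannot separate these readings. The thinning to 15000 UMIs was used for counts per cell and kept 23063 of 23914 cells, and a cell was positive with at least 1 UMI. It left out 9.18% of the cells of SCC6 cetuximab replicate 1 and 0.847% to 5.61% of those of the other samples. At this depth PTGS1 was found in 81.9% and 88.7% of untreated and 86.5% and 89.2% of cetuximab-treated SCC25 cells. In SCC1 the shares were 4.69% and 5.73% in PBS and 2.45% and 3.71% in cetuximab. In SCC6 they were 0.528% and 0.452% in PBS, then 0 of 2592 cells, which at 3 counts allows a share of cells with a UMI of up to 0.116%, and 0.244% (95% exact binomial interval 0.067% to 0.624%) in cetuximab. For genes that the cells should lack, the highest share was 0.061% in SCC6 (PTPRC, cetuximab replicate 2, 1 cell) and 0.183% in any line (HBB, SCC25 PBS replicate 1). Such intervals cover counting error only.

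PTGS2, the inducible cyclooxygenase, was the member whose cetuximab samples lay above its PBS samples in all 3 lines. In SCC1 it read 23.2 and 11.6 CPM in PBS and 57.1 and 32.5 CPM in cetuximab, in replicates 1 and 2. In SCC6 the values were 21.3 and 22.3 CPM in PBS and 32.2 and 37.8 CPM in cetuximab. In SCC25 they were 13.95 and 8.94 CPM in PBS and 34.5 and 19.5 CPM in cetuximab. Both cetuximab samples exceeded both PBS samples in each line, a pattern that 3.86% of all tested genes showed (22.3%, 25.5% and 14.4% in SCC1, SCC6 and SCC25 alone).

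The PTGS2 difference in SCC1 was 1.36 ± 0.41 on the log2 scale (FDR 0.336). That of SCC6 was 0.68 ± 0.40 (FDR 0.380) and that of SCC25 1.24 ± 0.41 (FDR 0.643), and none of these passed the threshold of 0.05, although SCC1 did so without the low-count filter (FDR 0.0367). Replicate 1 of SCC1 and of SCC25 was above replicate 2 in PBS and in cetuximab alike. With the replicate number as a block within each line, SCC1 had an FDR of 0.00316, SCC6 of 0.0104 and SCC25 of 0.0107, in fits that called 4.45%, 20.1% and 0.978% of all genes. The same contrast averaged over the lines, chosen after the data were seen, gave 1.09 ± 0.23 on the log2 scale (FDR 0.0324, and 0.00014 with the block, with both cetuximab samples higher in 3 of 3 lines), where 3.86% of all genes (2.73% as higher) were called without and 21.2% with the block. Without the block, 8 of the 12 fits that left out 1 sample lost that call, with an FDR of up to 0.103. The line-by-treatment interaction of PTGS2 gave an FDR of 1 (0.156 with the block), in fits that called 0% and 1.29% of all genes. The antisense transcript PACERR starts beside PTGS2, and whether counting used strand is not given in the sources used here.

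**Figure D1:**
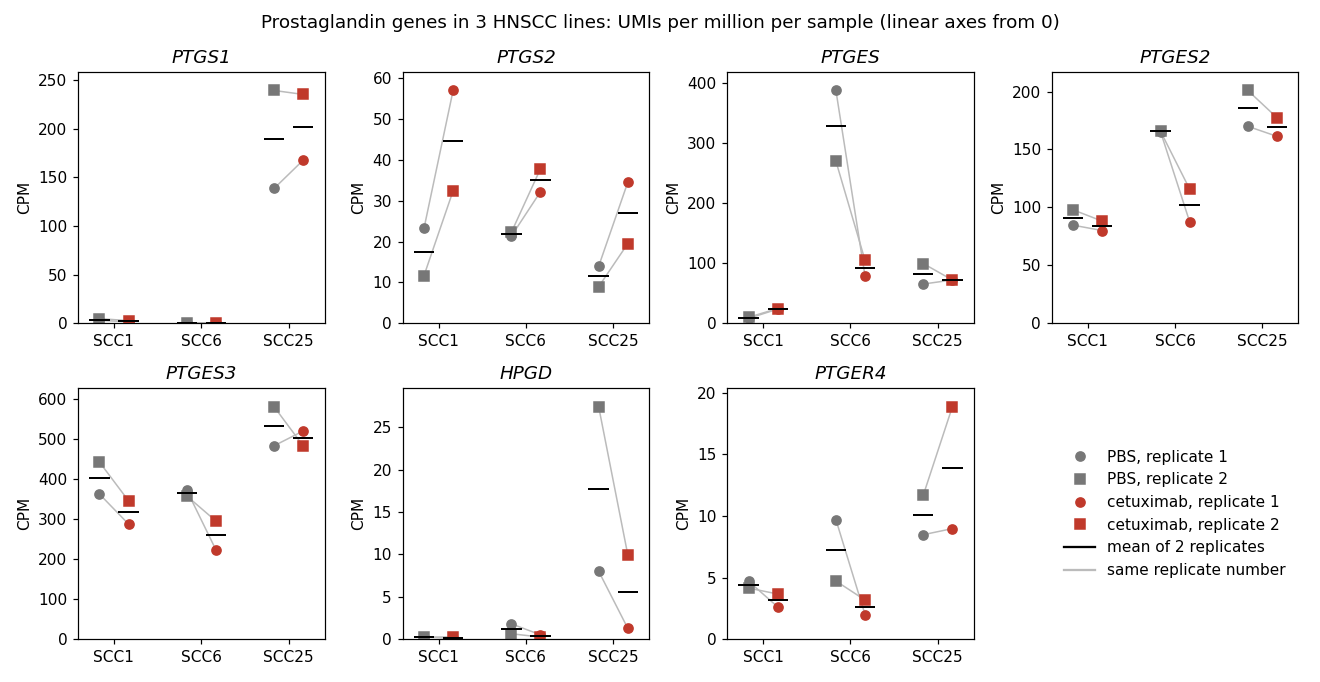
Each panel plots 1 gene in CPM (linear axis from 0) for SCC1, SCC6 and SCC25, with PBS in grey and cetuximab in red, circles for replicate 1, squares for replicate 2, a black bar for the mean of 2 and a grey line joining samples of the same number. PTGS2 is higher in cetuximab along every grey line, PTGES starts at 7.99 and 9.78 CPM in SCC1 and is higher in cetuximab, starts at 387.7 and 269.9 CPM in SCC6 and is lower in cetuximab, and PTGS1 and HPGD are at their highest in SCC25.

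After thinning, a PTGS2 UMI was found in a minority of the cells of each sample, and this share was higher in the cetuximab samples. At equal depth, 23.5% and 13.2% of untreated SCC1 cells had a PTGS2 UMI, and 47.9% and 32.3% of cetuximab-treated ones. In SCC6 the shares were 16.1% and 20.6% in PBS and 31.8% and 35.7% in cetuximab, and in SCC25 they were 15.0% and 10.5% against 30.3% and 21.6%. The UMIs per positive cell moved less, from 1.81 and 1.43 to 2.46 and 1.80 in SCC1 and from 1.66 and 1.52 to 1.67 and 1.85 in SCC6. Without thinning the shares were higher, at 45.8% and 30.5% in PBS and 74.1% and 58.3% in cetuximab for SCC1. No test was run on shares of cells.

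Within samples, PTGS2 was lower in cells with a UMI of MKI67 or TOP2A, proteins of dividing cells, than in cells with neither. The ratio of the pooled levels was 0.459 to 0.792 and lay below 1 in 12 of 12 samples. Fewer cells held an MKI67 or TOP2A UMI after cetuximab, with 70.5% and 68.2% in untreated against 25.3% and 47.1% in treated SCC1. The share of cells with these markers thus went down while PTGS2 went up. In SCC1 the gene was higher with cetuximab on both sides of this split. It read 26.3 and 10.7 against 54.6 and 33.2 CPM in cells with the markers. In cells without them it read 33.3 and 16.7 against 86.6 and 43.7 CPM. In SCC6 the cetuximab samples were also above the PBS samples on both sides. In SCC25 this held in cells without the markers, at 16.7 and 11.3 against 42.9 and 26.2 CPM. In SCC25 cells with the markers the samples overlapped, at 13.2 and 6.60 against 27.7 and 12.0047 CPM. Each cetuximab sample there was still above the PBS sample of the same number.

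In SCC6, cells were also divided by VIM, the mesenchymal filament gene that was found in 17.0% and 35.2% of untreated and 92.4% and 92.5% of cetuximab-treated cells. In cells with a VIM UMI, PTGS2 read 16.6 and 24.8 CPM in PBS and 36.9 and 46.2 CPM in cetuximab. In cells without one it read 18.1 and 18.8 CPM in PBS and 15.9 and 19.0 CPM in cetuximab, where the treated samples had 197 and 123 such cells with 47 and 35 PTGS2 UMIs. Treated and untreated samples of SCC6 thus did not overlap in VIM-positive cells and did overlap in VIM-negative ones.

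PTGES, the inducible prostaglandin E synthase whose pattern chose these genes, was at its highest in untreated SCC6. It stood at 387.7 and 269.9 CPM in SCC6, at 65.2 and 99.3 CPM in SCC25 and at 7.99 and 9.78 CPM in SCC1, with no overlap between the lines. On the log2 scale SCC6 was above SCC1 by 5.21 ± 0.31 and above SCC25 by 2.00 ± 0.27, and SCC25 was above SCC1 by 3.21 ± 0.28.

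With cetuximab PTGES went up in SCC1, to 23.4 and 24.4 CPM, and down in SCC6, to 78.4 and 104.7 CPM. In SCC25 it read 72.0 and 71.9 CPM, between its PBS samples. The ratio of cetuximab to PBS was 2.93 and 2.49 for replicates 1 and 2 of SCC1, 0.202 and 0.388 for those of SCC6 and 1.10 and 0.724 for those of SCC25. On the log2 scale the change was 1.43 ± 0.27, -1.84 ± 0.27 and -0.19 ± 0.26. Within SCC1 and within SCC6 the treated and untreated samples did not overlap, as was the case, in the same direction, for 22.3% of all genes in SCC1 (higher) and 21.4% in SCC6 (lower). After 5 days of cetuximab the gap between SCC6 and SCC1 had narrowed, but each SCC6 sample remained above each SCC1 sample.

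**Figure D2:**
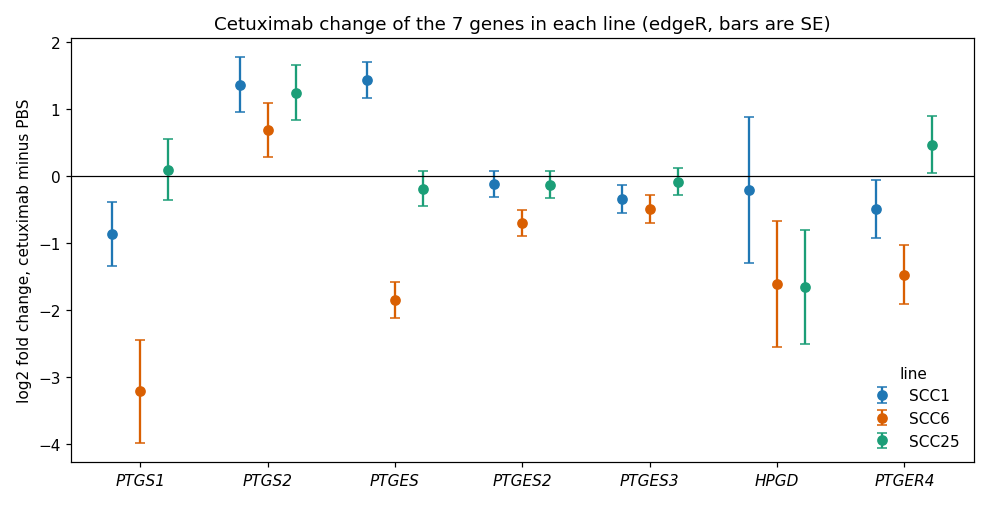
Points give the log2 fold change of cetuximab over PBS for each of the 7 genes in SCC1 (blue), SCC6 (orange) and SCC25 (green), and bars the standard error from the edgeR fit. PTGES sits at 1.43 in SCC1 and at -1.84 in SCC6, while PTGS2 is above 0 in all 3 lines and PTGS1 reaches -3.21 in SCC6.

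In single cells both directions of PTGES appeared as a change in the share of positive cells, and in SCC6 also in the UMIs per positive cell. In SCC1 10.9% and 13.5% of untreated and 28.8% and 28.7% of treated cells had a PTGES UMI at equal depth, with 1.44 and 1.25 UMIs per positive cell before and 1.39 and 1.51 after. In SCC6 the share went from 95.6% and 91.0% to 59.1% and 65.5%, and the UMIs per positive cell from 5.20 and 3.98 to 2.02 and 2.27. Without thinning the SCC6 shares were 98.8% and 97.7% in PBS and 70.8% and 90.0% in cetuximab. In SCC25 the shares were 54.0% and 66.4% in PBS and 58.0% and 54.4% in cetuximab. Cells with 5 to 9 PTGES UMIs made up 38.6% and 28.4% of untreated SCC6 cells and 3.28% and 5.55% of treated ones, and cells with 10 or more went from 10.4% and 3.65% to 0.231% and 0.427%. Cells without PTGES, at 40.9% and 34.5% of treated SCC6, then lay between the 33.6% and 46.0% of untreated SCC25.

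**Figure D3:**
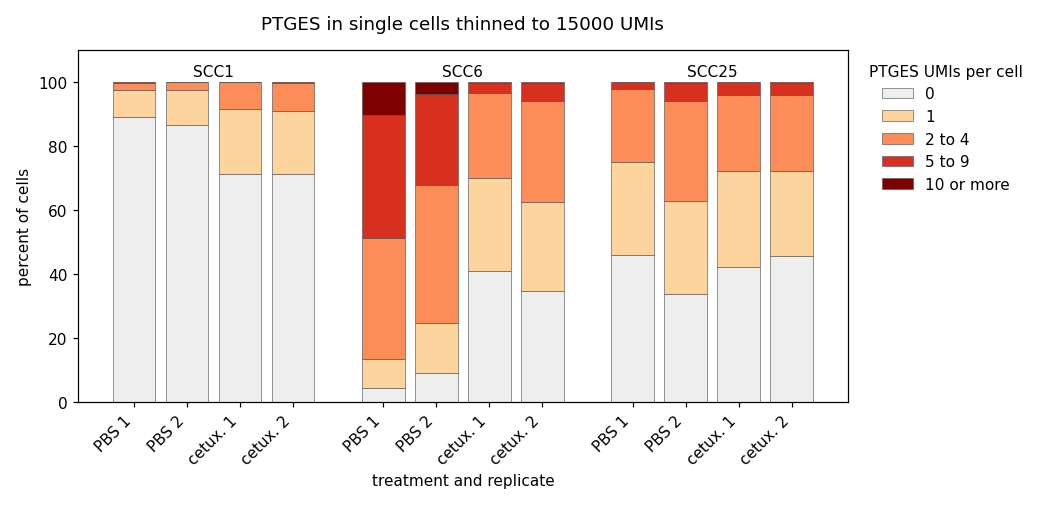
Stacked bars give the percent of cells with 0, 1, 2 to 4, 5 to 9 and 10 or more PTGES UMIs in each sample, after every cell was thinned to 15000 UMIs. In SCC6 the 2 PBS bars hold 4.41% and 8.99% of cells without PTGES and the cetuximab bars 40.9% and 34.5%, whereas in SCC1 the cells without PTGES go from 89.1% and 86.5% to 71.2% and 71.3%.

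Since VIM and the cell cycle markers also changed with cetuximab, PTGES was read within each class of cells. In VIM-negative cells of SCC6 it read 340.8 and 265.6 CPM in PBS and 127.2 and 162.1 CPM in cetuximab, and in VIM-positive cells 285.3 and 197.6 against 75.6 and 94.3 CPM, so that it was lower with cetuximab in both. Within each of the 8 samples of SCC6 and SCC25, PTGES was lower in cells with a VIM UMI, with ratios of 0.582 to 0.837 in SCC6 and 0.608 to 0.723 in SCC25. In SCC1 only 9 to 43 cells per sample held VIM, and they carried 1 to 4 PTGES UMIs in all, too few for a comparison.

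The division by MKI67 or TOP2A gave a different picture in each line. In SCC1, PTGES was lower in cells with these markers, with ratios of 0.264 to 0.486, and it was higher with cetuximab on both sides, at 5.76 and 8.17 against 14.9 and 18.5 CPM in cells with and 21.8 and 17.9 against 30.7 and 38.1 CPM in cells without them. In SCC6 the ratio was 0.952 to 1.09, so that PTGES hardly differed between these cells. In SCC25 it was 0.753 to 0.964. How much the lower share of cycling cells adds to the PTGES level of treated SCC1 was not tested.

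**Figure D4:**
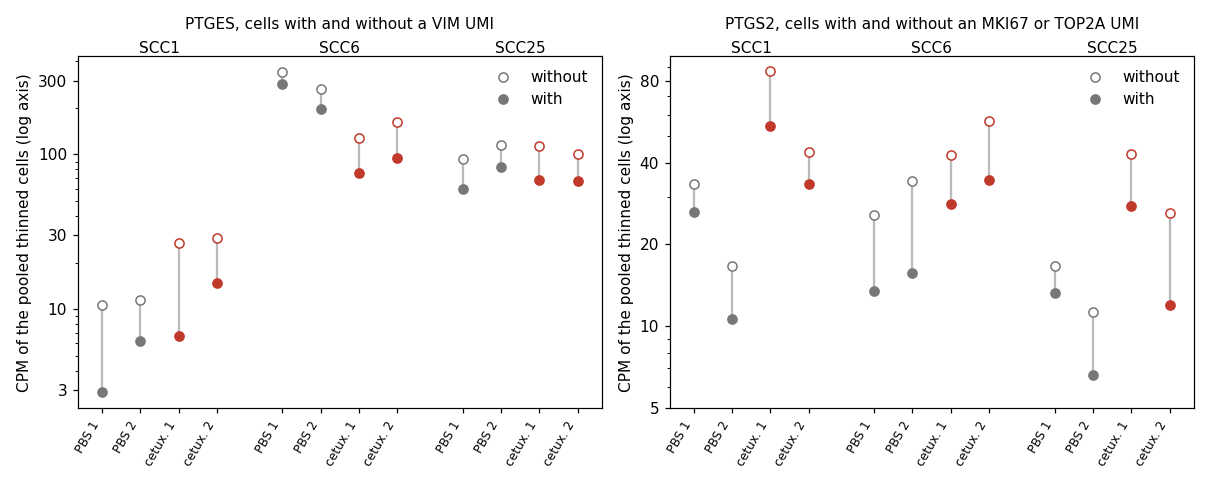
Each vertical pair gives the level in 1 sample, in CPM of the pooled thinned cells on a log axis, for cells with (filled) and without (open) a UMI of the dividing gene or genes, with PBS in grey and cetuximab in red. PTGES (left) is lower in VIM-positive cells of all 12 samples, although SCC1 rests on 9 to 43 such cells, and PTGS2 (right) is lower in cells with MKI67 or TOP2A in all 12.

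The lines differed in how often PTGES was detected in the same cell as a cyclooxygenase. At equal depth PTGS1 or PTGS2 was found in 27.0% and 18.4% of untreated SCC1, 16.6% and 20.8% of untreated SCC6 and 85.0% and 90.2% of untreated SCC25 cells. PTGES together with PTGS1 or PTGS2 was found in 3.46% and 2.26% of untreated and 15.1% and 11.4% of treated SCC1 cells. In SCC6 the shares were 15.4% and 18.4% in PBS and 17.6% and 21.3% in cetuximab, so that with fewer PTGES-positive and more PTGS2-positive cells the joint share moved little. In SCC25 they were 46.3% and 59.97% in PBS and 52.1% and 49.6% in cetuximab, mostly through PTGS1. Of the PTGS2-positive cells of SCC6, 92.3% and 88.4% also had PTGES in PBS and 55.2% and 59.3% in cetuximab, close to the shares of all cells. The synthase PTGES3 was found in nearly all cells of every sample, so these shares speak of PTGES alone. A missing UMI at this depth does not show that the transcript was absent.

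PTGES2, the constitutive membrane-associated synthase, was lower in SCC1 than in the other lines. Untreated SCC1 had 84.6 and 97.8 CPM, SCC6 165.4 and 165.7 CPM and SCC25 170.0 and 200.9 CPM. SCC6 was above SCC1 by 0.86 ± 0.20 on the log2 scale (FDR 0.00604) and SCC25 by 1.02 ± 0.20 (FDR 0.00242), while SCC6 and SCC25 differed by -0.16 ± 0.20 (FDR 0.539). Without SCC1 PBS replicate 1 the FDR for SCC6 against SCC1 was 0.0687.

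In SCC6 PTGES2 read 165.4 and 165.7 CPM in PBS and 87.6 and 115.8 CPM in cetuximab. Both cetuximab samples were below both PBS samples, as for 21.4% of all genes. The log2 fold change was -0.70 ± 0.20 and missed the threshold (FDR 0.0788), but passed it with the replicate block (-0.72, FDR 0.00996) and in DESeq2 (FDR 0.00917). In SCC1 and SCC25 the samples overlapped, with 79.96 and 88.1 CPM and 161.3 and 177.4 CPM after cetuximab and log2 fold changes of -0.12 ± 0.20 and -0.13 ± 0.20. The interaction for PTGES2 had an FDR of 0.772 (0.192 with the block), so that a difference between the lines was not shown. PTGES2-AS1 overlaps the gene on the other strand, and its reads may be counted with it.

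PTGES3, the cytosolic synthase and co-chaperone, was detected in 94.5% to 99.5% of the thinned cells of every sample. Its untreated levels were 362.4 and 442.2 CPM in SCC1, 372.1 and 357.6 CPM in SCC6 and 482.6 and 580.0 CPM in SCC25. No pair of lines passed the threshold, the nearest being SCC6 below SCC25 by 0.54 ± 0.21 on the log2 scale (FDR 0.0569, with 0.027 in DESeq2 and 0.0475 in edgeR with the size factors of DESeq2). PTGES3 has several processed copies in the genome, and how reads shared with them were counted is not given in the sources used here, so its counts are uncertain.

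With cetuximab PTGES3 read 287.5 and 345.6 CPM in SCC1 and 223.6 and 295.1 CPM in SCC6, in each case below both PBS samples. The same held for 20.4% of all genes in SCC1 and 21.4% in SCC6. In SCC25 PTGES3 read 519.5 and 482.4 CPM, and the samples overlapped. SCC1 had a log2 fold change of -0.35 ± 0.20 (FDR 0.725), SCC6 of -0.49 ± 0.20 (FDR 0.217, and 0.0428 with the replicate block) and SCC25 of -0.08 ± 0.20 (FDR 1). In every sample PTGES3 was higher in cells with MKI67 or TOP2A than in those without, by ratios of 1.29 to 1.61, the opposite order to PTGS2. The share of such cells was lower with cetuximab in each line. PTGES3 and the cycling share thus moved the same way in SCC1 and SCC6, while the PTGES3 samples of SCC25 overlapped. The part of one in the other was not tested.

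HPGD, the enzyme that breaks down prostaglandin E2, was at its highest in SCC25. Untreated SCC25 had 8.02 and 27.4 CPM, SCC6 1.84 and 0.664 CPM and SCC1 0.279 and 0.251 CPM, the last being 20 and 24 UMIs. SCC25 was above SCC1 by 6.06 ± 1.07 on the log2 scale (FDR 0.00147), and SCC6 was below SCC25 (-3.83 ± 0.94, FDR 0.00844). The latter call was lost without SCC6 PBS replicate 2 (-3.27, FDR 0.0648) and without SCC25 PBS replicate 2 (-2.68, FDR 0.0531). SCC6 and SCC1 did not overlap but missed the threshold (2.23 ± 0.98, FDR 0.0954). They passed it in DESeq2 (FDR 0.0226), without the low-count filter (FDR 0.00672) and without either SCC25 cetuximab sample (FDR 0.0301 and 0.0316).

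In SCC25 replicate 2 was above replicate 1 in both treatments, and the cetuximab samples, at 1.31 and 9.96 CPM, each lay below the PBS sample of the same number but overlapped the PBS range. The log2 fold change of HPGD there was -1.65 ± 0.85 (FDR 0.901) without and -1.99 ± 0.30 (FDR 0.0304) with the replicate block. Without the block it was -3.76 without SCC25 cetuximab replicate 2, -0.81 without cetuximab replicate 1 and -0.50 without PBS replicate 2. At equal depth HPGD-positive cells went from 10.8% to 1.98% in replicate 1 and from 28.0% to 12.8% in replicate 2. In SCC6 it read 0.541 and 0.277 CPM after cetuximab, with a log2 fold change of -1.62 ± 0.94 (FDR 0.375, and 0.0236 with the block). In SCC1 it stood at 0.138 and 0.308 CPM, on both sides of its PBS samples. Averaged over the lines HPGD changed by -1.16 ± 0.55 (FDR 0.278, and 0.00742 with the block).

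PTGER4, the EP4 receptor for prostaglandin E2, had 4.71 and 4.16 CPM in untreated SCC1, 9.70 and 4.73 CPM in SCC6 and 8.48 and 11.7 CPM in SCC25. Only SCC25 against SCC1 passed the threshold (1.19 ± 0.43 on the log2 scale, FDR 0.0489), and 8 of the 12 fits that left out 1 sample lost the call. These were the fits without an untreated SCC1 or SCC25 sample (FDR 0.0601 to 0.194) and those without a treated SCC1 or SCC6 sample (FDR 0.0523 to 0.0604). SCC6 against SCC1 gave 0.70 ± 0.43 (FDR 0.221) and the lower SCC6 sample was level with the higher SCC1 one.

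After cetuximab PTGER4 read 2.01 and 3.19 CPM in SCC6, under both PBS samples, as for 21.4% of all genes. The log2 fold change was -1.47 ± 0.44, which missed the threshold (FDR 0.0935) and passed it with the replicate block (FDR 0.033), in DESeq2 (FDR 0.018) and without the low-count filter (FDR 0.0109). In SCC1 it read 2.63 and 3.68 CPM (-0.49 ± 0.43, FDR 0.873) and in SCC25 8.98 and 18.9 CPM, where one treated sample was above and one within the PBS range (0.46 ± 0.42, FDR 1). The interaction had an FDR of 0.610 (0.200 with the block).

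Of the 6 members other than PTGES, 1 was called after cetuximab in SCC6 (PTGS1, lower) and none in SCC1 or SCC25, where 0.0168% and 0% of all genes were called. At an unadjusted p under 0.05, edgeR gave 1 of the 6 in SCC1 (PTGS2), 4 in SCC6 (PTGS1, PTGES2, PTGES3 and PTGER4) and 1 in SCC25 (PTGS2). Over all 17897 tested genes it gave 1570, 3561 and 1041 in SCC1, SCC6 and SCC25. With the replicate block PTGS2 was called in SCC1 and PTGS2 and HPGD in SCC25, beside 4.45% and 0.978% of all genes. In SCC6 the block called all 6, with PTGS2 higher and the others lower, beside 9.94% of all genes called higher and 10.1% called lower. DESeq2 called PTGS1, PTGES2 and PTGER4 in SCC6 and no member of the 6 in SCC1 or SCC25. Over all genes it called 1671, 274 and 101 in SCC6, SCC1 and SCC25. Over the 6 the log2 fold changes had a median of -0.28 for SCC1, -1.09 for SCC6 and 0.00 for SCC25, beside medians over all genes of 0.00, 0.00 and -0.01. Averaged over the lines, PTGS1 (-1.33 ± 0.34, FDR 0.0608), PTGES2 (-0.32 ± 0.11, FDR 0.147) and PTGES3 (-0.31 ± 0.12, FDR 0.174) missed the threshold in edgeR and passed it with the replicate block (FDR 0.00544, 0.0218 and 0.0329). PTGS1 did so in DESeq2 too (FDR 0.000616) and without the low-count filter (FDR 0.00131).

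Markers of other cell types also moved in SCC6. CD68 fell (log2 fold change -2.55 ± 0.47, FDR 0.0202) and COL1A1 rose (3.45 ± 0.41, FDR 0.00631). Of the 8 squamous markers, the keratin KRT6A fell (-2.60 ± 0.27, FDR 0.00373). The sum of these 8 was 461.2 and 690.5 CPM in PBS and 452.2 and 756.2 CPM in cetuximab, which overlap. The 6 blood and liver markers, of which CD68 alone was above 1 CPM, summed to 13.2 to 30.5 CPM in PBS and 3.34 to 4.21 CPM in cetuximab, and the 7 fibroblast and endothelial markers to 1.27 to 3.08 and 19.6 to 23.4 CPM. PTPRC, CD3E, ALB and HBB stayed at or below 0.0221 CPM in SCC6. The part of these shifts in the values of the members was not tested.

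The rest of the pathway was read from 7 lists with 57 genes that had a UMI, of which 45 were tested and 27 reached a group mean of 5 CPM. In SCC6 cetuximab raised 1 and lowered 3 of the 45, beside 2.51% and 1.3% of all genes called higher and lower. In SCC1 and SCC25 edgeR called none, beside 0.0168% and 0% of all genes. At an unadjusted p under 0.05 edgeR gave 2 and 4 there, beside 1570 and 1041 of all 17897 genes. DESeq2 called none in these lines, beside 274 and 101 over all genes. With the replicate block 2 were higher in SCC1, 3 higher and 7 lower in SCC6 and 1 higher in SCC25. That fit called 4.45%, 20.1% and 0.978% of all genes in either direction in SCC1, SCC6 and SCC25. Over the 45 the median log2 fold change came to 0.06 for SCC1, to -0.20 for SCC6 and to -0.18 for SCC25, beside 0.00, 0.00 and -0.01 over all genes. The lists were drawn up with earlier results of these data known.

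Among the phospholipases that release arachidonic acid, 2 of 13 reached 5 CPM, PLA2G12A and PLA2G15, and neither passed the threshold in any line. PLA2G4C, a cytosolic phospholipase under that level and named after its values were seen, was higher on average over the lines (1.35 ± 0.28, FDR 0.0301), at 0.168 and 0.157 CPM in PBS and 0.797 and 0.434 CPM in cetuximab in SCC1, and 8 of the 12 fits that left out 1 sample lost the call. PLA2G4A, the phospholipase that usually feeds the cyclooxygenases and also chosen after its values were seen, read 2.82 and 4.12 CPM in untreated and 1.25 and 1.91 CPM in treated SCC6 (-1.13, FDR 0.106, with 0.015 with the block and 0.0305 in DESeq2).

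Among the other synthases and reductases, the lines differed widely. AKR1B1, an aldose reductase that can form prostaglandin F2alpha, had 760.5 and 1249.7 CPM in untreated SCC6, 188.4 and 281.8 CPM in SCC1 and 34.6 and 60.1 CPM in SCC25, and all pairs of lines passed the threshold. CBR1, a carbonyl reductase acting on prostaglandin E2, was at its highest in SCC25 with 208.5 and 345.9 CPM. Over the list of these enzymes 5, 8 and 7 of 9 tested genes were called for SCC6 against SCC1, SCC25 against SCC1 and SCC6 against SCC25, where 40.2%, 40.8% and 40.9% of all genes were called.

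GSTM3, a glutathione transferase with reported prostaglandin E synthase activity, was higher with cetuximab in every line. It read 6.67 and 10.2 against 17.4 and 27.2 CPM in SCC1 and 39.1 and 72.7 against 115.7 and 161.6 CPM in SCC6. In SCC25 it read 75.4 and 149.4 against 210.3 and 538.1 CPM. Both cetuximab samples were above both PBS samples in each of the 3 lines, as for 3.86% of all genes. The average over the lines was 1.48 ± 0.29 (FDR 0.023, lost in 5 of the 12 fits that left out 1 sample), and with the replicate block SCC1, SCC6 and SCC25 each passed (FDR 0.00523, 0.00148 and 0.00778), as did SCC6 and SCC25 without the low-count filter (FDR 0.0328 and 0.0216). For the average, 3.86% of all genes were called (2.73% as higher), and the block called 4.45%, 20.1% and 0.978% in SCC1, SCC6 and SCC25. AKR1C3, which can form prostaglandin F2alpha, read 55.4 and 61.6 CPM in untreated and 133.8 and 145.7 CPM in treated SCC1 (1.26, FDR 0.643, and 0.00793 with the block). Its interaction passed with the block only (FDR 0.0227), where 1.29% of all genes were called.

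**Figure D5:**
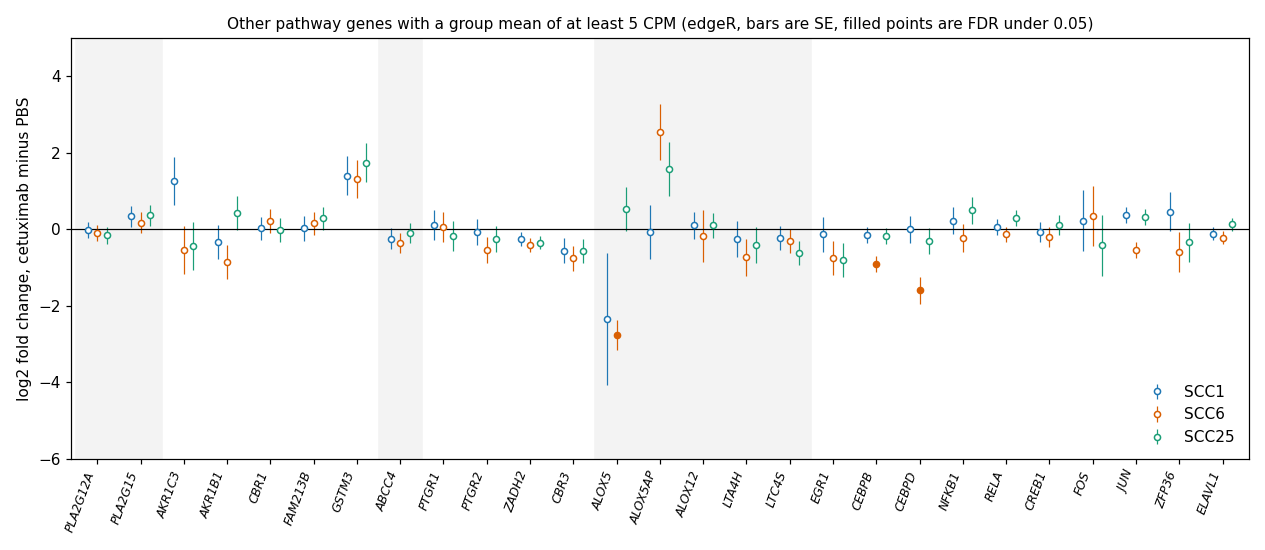
Points give the log2 fold change of cetuximab over PBS, with SE bars, for the 27 other pathway genes with a group mean of at least 5 CPM in SCC1 (blue), SCC6 (orange) and SCC25 (green), filled where the FDR is under 0.05 and with shading that alternates between the lists. The filled points are ALOX5, CEBPB and CEBPD in SCC6, and GSTM3 lies above 0 in all 3 lines.

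SLCO2A1, the prostaglandin uptake transporter, was called in SCC6 (3.06 ± 0.68, FDR 0.0418) but at 0.0477 and 0.239 CPM in PBS and 0.798 and 1.64 CPM in cetuximab, and 10 of the 12 fits that left out 1 sample lost the call. It is named here after its values were seen. The reductases PTGR1, PTGR2, ZADH2 and CBR3 were not called with cetuximab in edgeR with the low-count filter and no block. With the block PTGR2 (-0.55, FDR 0.0249) and CBR3 (-0.74, FDR 0.0256) were lower in SCC6, and PTGR2, ZADH2 and CBR3 were lower on average over the lines (FDR 0.0305, 0.0159 and 0.00542). DESeq2 also called ZADH2 (FDR 0.0061) and CBR3 (FDR 0.0237) for that average, and CBR3 passed it without the low-count filter (FDR 0.0328). Of the other 8 prostanoid receptors none reached 5 CPM in any group and 3 were tested. PTGER4 exceeded that level on average in SCC25 and in untreated SCC6, and stayed below it in SCC1 and in treated SCC6.

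In the lipoxygenase branch, which turns the same arachidonic acid into leukotrienes, ALOX5 stayed at or below 0.104 CPM in SCC1 and SCC25. In SCC6 it fell from 7.65 and 5.02 CPM to 1.02 and 0.841 CPM with cetuximab (-2.77 ± 0.40, FDR 0.00999, lost in 3 of the 12 fits that left out 1 sample). ALOX5AP, its activating protein, read 0.37 and 2.54 CPM in PBS and 10.1 and 6.86 CPM in cetuximab (2.54, FDR 0.0825, with 0.0256 with the block, 0.00586 in DESeq2, 0.00161 without the low-count filter and 0.0328 without the 5% of cells with most UMIs). LTA4H, which makes leukotriene B4, read 67.8 and 64.8 CPM in PBS and 33.4 and 46.3 CPM in cetuximab (-0.74, FDR 0.433, and 0.0158 with the block).

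Among 10 factors known to act on PTGS2 or PTGES, 2 were lower in SCC6, where 1.3% of all genes were, and none was called in SCC1 or SCC25, where 0.0168% and 0% were. CEBPB, a factor that binds the PTGS2 promoter, fell from 528.8 and 379.5 to 229.6 and 251.5 CPM in SCC6 (-0.92 ± 0.21, FDR 0.0414). CEBPD fell from 253.4 and 105.6 to 63.8 and 54.7 CPM (-1.60 ± 0.35, FDR 0.0365). Of the 12 fits that left out 1 sample, 9 lost the call of CEBPB and 7 that of CEBPD, and SCC6 fitted alone lost both (FDR 0.163 and 0.117). Without SCC6 PBS replicate 1, the higher of the pair for both genes, CEBPB changed by -0.66 (FDR 0.287) and CEBPD by -0.84 (FDR 0.241). EGR1, a factor reported to drive PTGES, read 154.1 and 118.5 CPM in untreated and 64.4 and 96.9 CPM in treated SCC6 (-0.76 ± 0.45, FDR 0.388), and 84.8 and 62.8 against 66.2 and 67.8 CPM in SCC1 (-0.14 ± 0.45, FDR 1).

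The genes whose pattern was most like that of PTGES were sought among 2724 genes of at least 50 CPM, by Pearson r of log2(CPM + 1) over the 12 samples after the mean of each line was subtracted. The highest were IL18 (0.928), AGPAT2 (0.924), DKK1 (0.924), FAM3C (0.924) and ALDH1A3 (0.901), and the lowest VIM (-0.899), MRPL52 (-0.892) and SNF8 (-0.866). These points share line, treatment and library, and r is a description. With the line means kept, r was -0.70 for IL18 and 0.61 for VIM, so that the sign turned. DKK1, a secreted inhibitor of Wnt signalling, had 72.6 ± 11.4 (SD, n = 2) and 264.3 ± 93.0 CPM in untreated and treated SCC1, and 278.5 ± 174.6 and 48.6 ± 25.8 CPM in SCC6. IL18, an epithelial cytokine, had 178.1 ± 0.5 and 306.5 ± 83.4 CPM in SCC1 and 49.6 ± 3.1 and 23.7 ± 5.4 CPM in SCC6. VIM moved the other way, from 63.2 ± 41.8 to 822.7 ± 25.2 CPM in SCC6.

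The genes next to PTGES on chromosome 9 (129738349 to 129753042, minus strand, GRCh38.p14) were read beside it. Its neighbours NTMT1, ASB6 and PRRX2 on one side and TOR1B, TOR1A and C9orf78 on the other had log2 fold changes of -0.35 to 0.35 in SCC1 and -0.60 to 0.16 in SCC6, and none passed the threshold in any line. NTMT1, for example, read 141.1 CPM on average in untreated and 93.3 CPM in treated SCC6 (-0.60 ± 0.21, FDR 0.149).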

How the data were processed

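The authors prepared 10x Genomics 3′ v2 libraries and deposited raw UMI counts per gene and cell for each line. The submitters' processing notes name Cell Ranger and GRCh38, with the version and annotation not given in the sources used here, and the authors analysed the cells in Monocle 3 alpha. Counts of the 23914 deposited cells were summed per sample after 24 rows with a repeated symbol were merged, and no further cells were removed and no doublet caller was run. Summed counts were tested with edgeR 4.0.16 in R 4.3.3 (TMM scaling, filterByExpr, quasi-likelihood F-test, 6 group means over 12 samples, two-sided, Benjamini-Hochberg FDR under 0.05). DESeq2 1.42.0, its size factors, no low-count filter, a replicate block, each line alone, leaving out each sample and leaving out the 5% of cells with most UMIs were the alternatives.

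Replicate numbers were taken as pairs in the fit with the replicate block only, and the main fit used no pairs. The reason was that deviations of samples with the same number from their group means correlated in each line of these data (r = 0.676 in SCC1, 0.630 in SCC6 and 0.722 in SCC25 over 7558 genes). The main fit had 6 residual degrees of freedom and the fit with the block 3. The members and gene lists were chosen with earlier results of these data known. All 7 members were named, and other pathway genes where a group mean reached 5 CPM. Cells were thinned with Python 3.11.15 and numpy 2.4.6, and intervals of shares came from scipy 1.17.1 (Clopper-Pearson). The scripts were tested on simulated data.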

Additional observations from a re-analysis of the deposited data

Results flagged for a closer look

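PTGES moved in opposite directions under the same treatment. Every cetuximab sample of SCC1 was above every PBS sample, with a ratio of the group means of 2.69, and every cetuximab sample of SCC6 was below every PBS sample, with a ratio of 0.278. The genes were chosen for this pattern, and the difference was not tested.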

How the results depend on the processing

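Counts of genes called over the whole table moved most. For cetuximab in SCC1, SCC6 and SCC25, the interaction and the mean over the lines, edgeR called 3, 682, 0, 0 and 691 genes, against 274, 1671, 101, 276 and 1831 in DESeq2, 243, 1233, 128, 248 and 1271 without the low-count filter, and 797, 3589, 175, 230 and 3797 with the replicate block. At an unadjusted p under 0.05 edgeR gave 1041 genes in SCC25 and 1318 for the interaction. The line alone gave 0 in SCC1 and 265 in SCC6, and leaving out the 5% of cells with most UMIs gave 1 in SCC25. Leaving out 1 sample gave 0 to 6, 11 to 749, 0 to 1, 0 to 14 and 154 to 659 genes, with 11 in SCC6 without SCC6 PBS replicate 1 and 61 without SCC6 cetuximab replicate 1. For untreated SCC6 against SCC1 the range was 4754 to 7328 and for SCC25 against SCC1 4707 to 7491. The cause was not tested.

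Leaving out 1 sample turned the sign of the log2 fold change of PTGES in SCC25 (-0.47 to 0.14), and of some that had not passed the threshold. The latter were HPGD in SCC1 (-0.93 to 0.21), PTGES3, PTGS1 and PTGER4 in SCC25 (-0.21 to 0.055, -0.25 to 0.54 and -0.17 to 0.92) and, for untreated SCC6 against SCC1, PTGES3 (-0.28 to 0.011) and PTGS2 (-0.091 to 0.90). With line means kept, r with PTGES was -0.698 for IL18, -0.257 for FAM3C, 0.610 for VIM and 0.407 for MRPL52. Calls changed by the replicate block are given beside each result, and it changed no other call given there. Untreated lines could not be fitted with the block, since each block lies within 1 line. Low UMI totals limit PTGS1 and HPGD in SCC6 and SCC1.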
